A study of Mus musculus with 6 samples.

Results

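Deubiquitinases are the proteases that take ubiquitin off proteins. The genes described here are those of the ubiquitin-specific protease (USP), ovarian tumour (OTU), ubiquitin C-terminal hydrolase (UCH) and JAMM metalloprotease families, outside the Josephin family to which ATXN3 itself belongs. They were found by symbol, among probe sets that name a single gene. A symbol counted if it began with Usp and a digit, Otud, Otub or Uchl, or was Bap1, Cyld, Stambp, Stambpl1, Brcc3, Yod1, Zranb1 or Vcpip1, and 6 symbols (Usp18, Usp29, Otub2, Tnfaip3, Usp9y and Usp9x) were set aside by the rule. This gave 66 genes of 18193 measured, read by 166 probe sets, and each gene was represented by its probe set with the highest mean over all arrays. The rule used no difference between genotypes. Of the 66, 64 encode proteins of these families. The other two are Usp6nl, which encodes a TBC-domain protein despite its name, and Usp46os2, a non-coding antisense transcript at the Usp46 locus. Uchl3 shares its probe set with Uchl4 in the annotation and was not analysed here, nor were Usp35 and Usp51.

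The study asked what loss of ATXN3 does to gene expression. RNA of mouse embryonic fibroblasts (MEFs), connective tissue cells grown out of embryos, was hybridised to 6 Affymetrix whole-genome arrays, 3 of genotype Atxn3-WT and 3 of genotype Atxn3-KO. The MEFs came from Atxn3-KO mice and WT littermates, and both kinds grew in the same serum-containing medium, with no drug named for these arrays. The replicates are called biological, but no source used here says that they came from separate embryos or cultures. The p-values therefore speak only of the scatter among these 6 samples, some of which may be technical. The authors state that KO and WT mice were matched for sex and age. Sex and embryonic age are not given for these arrays. Every value below is a log2 level from robust multi-array averaging (RMA), and every difference is Atxn3-KO minus Atxn3-WT on that log2 scale, so that -1 would be a fall to 50% of the WT level. "Lower" and "higher" are used of a gene whose limma p, adjusted by Benjamini-Hochberg over all 45037 probe sets, was under 0.05.

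Ubiquitin is joined to proteins singly or in chains, and the linkage of the chain decides whether a protein is degraded by the proteasome, moved between membranes or built into a signalling complex. Deubiquitinases edit or remove these marks and recover free ubiquitin. Some work within a complex or with partners that help choose their substrates, for example on chromatin, at the proteasome or on endosomes. Others work with the p97 ATPase, which is also a partner of ATXN3.

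The promoters of 4 genes are shown because these genes differed between the genotypes and were still called when set against the other genes of their chromosomes. Uchl1 and Usp11 were lower in Atxn3-KO MEFs by the widest margin, and Otud3 and Usp12 were higher. Each sequence is the 250 bases before the RefSeq start (build GRCm38.p6), written 5′ to 3′ on the strand of the gene. Capitals mark matches, on either strand, to 6 motifs, which are the SP1 motif GGGCGG, the CCAAT box spelled as its name, the ETS motif CCGGAAG, the E-box CACGTG, the TATA box TATAAA and the cAMP response element TGACGTCA. No motif contains another.
Uchl1, chr5:66675871-66676120, plus strand: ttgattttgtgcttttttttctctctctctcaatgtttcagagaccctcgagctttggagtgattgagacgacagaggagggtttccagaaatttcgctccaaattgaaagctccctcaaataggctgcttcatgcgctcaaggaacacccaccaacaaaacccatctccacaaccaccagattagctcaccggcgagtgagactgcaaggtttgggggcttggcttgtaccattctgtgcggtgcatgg
Usp11, chrX:20703659-20703908, plus strand: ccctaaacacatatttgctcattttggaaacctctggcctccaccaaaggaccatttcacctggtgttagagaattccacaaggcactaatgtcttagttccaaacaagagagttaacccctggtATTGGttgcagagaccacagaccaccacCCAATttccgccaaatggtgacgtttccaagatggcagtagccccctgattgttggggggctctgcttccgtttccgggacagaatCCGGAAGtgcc
Otud3, chr4:138913969-138914218, minus strand: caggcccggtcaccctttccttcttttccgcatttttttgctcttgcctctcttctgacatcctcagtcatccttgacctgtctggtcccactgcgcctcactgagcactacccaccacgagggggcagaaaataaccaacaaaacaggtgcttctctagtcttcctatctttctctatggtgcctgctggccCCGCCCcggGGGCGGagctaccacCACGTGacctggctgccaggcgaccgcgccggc
Usp12, chr5:146794957-146795206, minus strand: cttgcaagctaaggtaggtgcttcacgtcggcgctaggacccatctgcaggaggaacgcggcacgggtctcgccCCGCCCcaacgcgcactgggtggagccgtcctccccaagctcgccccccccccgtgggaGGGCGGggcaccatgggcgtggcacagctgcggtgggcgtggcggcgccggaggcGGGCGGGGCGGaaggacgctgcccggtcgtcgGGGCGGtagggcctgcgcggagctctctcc
The Uchl1 promoter held none of the 6 motifs, with 48.8% G or C and 7 CpG dinucleotides. That of Usp11 held CCAAT at 125 bases (reverse strand) and 97 bases before the start and an ETS match at 11 bases, with 5 CpG. The Otud3 promoter had SP1 matches at 57 (reverse) and 48 bases and an E-box at 33 bases, with 12 CpG. The Usp12 promoter had 5 SP1 matches, at 176 (reverse), 117, 62, 57 and 30 bases, of which those at 62 and 57 overlap, with 74.8% G or C and 30 CpG. A promoter was found for 52 of the 66 genes (57 promoters), and 66.7% of these held the SP1 motif, against 42.6% of 21263 protein-coding promoters. TATAAA was in 3.51% of the 57 against 11.6%, and the median G and C content was 63.2% against 55.6%. The SP1 motif was in 14 of 19 promoters of lower genes, in all 5 of higher genes and in 19 of 33 of the rest. CCAAT was in 3 of the 19, in 1 of the 5 and in 14 of the 33. A match is a description of these letters and shows no binding.

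Of the 66 genes, 23 were lower in Atxn3-KO MEFs (34.8%), 7 were higher (10.6%) and 36 were not called either way. Over all genes measured, 14.7% were lower and 17.1% were higher. The genes called lower were more frequent than in this background, and those called higher less frequent. Because these counts move with level, they were also set against genes whose mean over all arrays was at or above the median of all probe sets, 5.98. In that range 20.7% of genes were lower and 24.1% higher, and it held 60 of the 66 genes with all 30 calls. The median difference over the 66 genes was -0.078, against 0.0021 over all genes, and 43 of the differences were negative. In 30 genes every Atxn3-KO array lay below every Atxn3-WT array, and in 10 every KO array lay above (45.5% and 15.2%, against 23.9% and 25.3% of all genes, and 32.5% and 34.1% of those at or above the median level). The groups were separate in this way in all 30 genes called, and in Usp6nl, Usp15, Usp16, Usp22, Usp33, Stambpl1, Yod1, Usp1, Usp7 and Otud6b, which were not called. The changes were modest, with a median size of 0.26 among the 30 genes called. None passed the thresholds of the study, an adjusted p of at most 0.001 with a change of at least 2-fold, which 1.93% of all genes passed. At an unadjusted p under 0.05, 28 genes were lower and 9 higher, against 20.1% and 22.5% of all genes. Uchl1, Usp11, Usp40 and Usp43 met the p alone, as did 8.44% of all genes. Uchl4, Usp17la and Usp26 had means under the lowest 25th percentile of the arrays (4.36), where a change is hard to read.

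**Figure D1:**
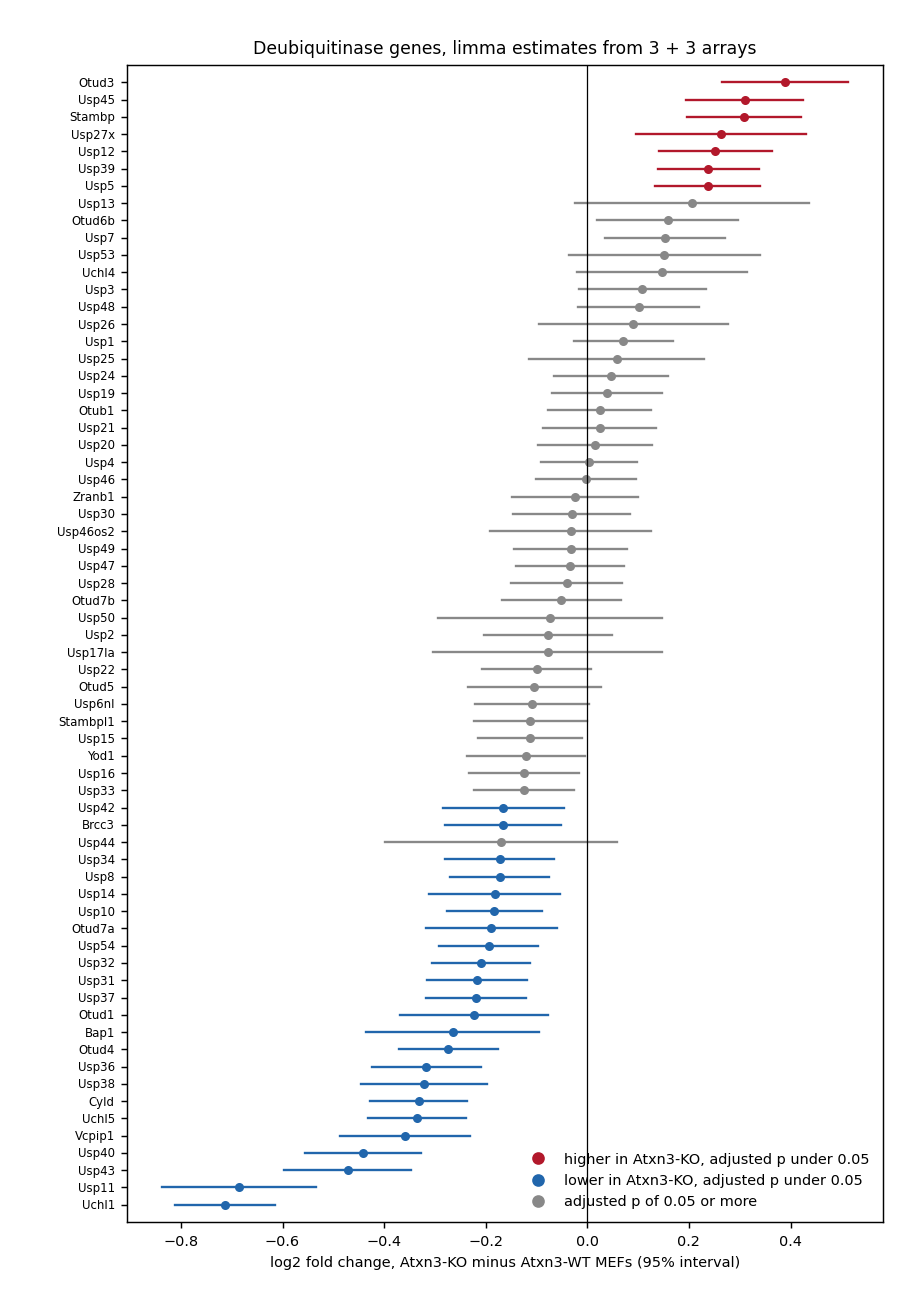
Difference in log2 level, Atxn3-KO minus Atxn3-WT MEFs, for all 66 genes (points) with the 95% interval from limma (bars) over 3 + 3 arrays, ordered by the difference. Lower genes (blue, 23) reach -0.71 in Uchl1, higher genes (red, 7) reach 0.39 in Otud3, and grey genes were not called. Usp6nl and Usp46os2 are drawn although they encode no deubiquitinase.

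Several marks of the arrays as a whole bear on these values. The Atxn3 level was 6.53, 6.81 and 6.66 on the WT arrays and 3.60, 3.43 and 3.73 on the KO arrays, as the labels have it. Fibroblast markers such as Col1a1 and Vim were present in both genotypes, but 3 of 12 were higher and 6 lower in KO, among them Dcn (1.91) and Thy1 (-4.21). Their summed linear signal was 73905 to 75237 in WT and 65203 to 67242 in KO. Of the other cell types listed, 5 of 7 smooth muscle genes were higher in KO, with summed linear signal of 19292 to 19679 in WT and 28152 to 29015 in KO. Of 7 epithelial markers 2 were higher, Krt18 (1.27) and Epcam (0.38), and none of 8 macrophage or 7 endothelial markers was called. The 9 proliferation genes measured included Mcm2 (higher), Top2a and Mcm5 (lower), and the other 6 were not called. In bulk RNA such as this, fewer cells of a type and less RNA per cell cannot be told apart, and the part of these differences in the results was not tested. RMA makes the arrays alike in distribution, and a change shared by all genes would not show.

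The genes that handle free ubiquitin held the largest difference. Uchl1, a hydrolase best known from neurons that keeps up the pool of single ubiquitin, had levels of 9.92, 9.89 and 9.95 in Atxn3-WT MEFs and 9.20, 9.23 and 9.19 in Atxn3-KO MEFs. The groups were far apart against a spread of under 0.1 within each. The difference was -0.71 (SE 0.042, adjusted p = 3.78e-05), which left 61.0% of the WT level. Uchl1 has a single probe set here. Of 9 neuronal markers, Tubb3 (-0.95) and Stmn2 (-1.58) were also lower, Map2 (1.55) was higher and 6 were not called. The summed linear signal of these markers was 1247 to 1310 in WT and 1147 to 1195 in KO, and their part in the Uchl1 result was not tested. Usp5, which takes apart unanchored chains, moved the other way, with 10.27, 10.34 and 10.35 in WT and 10.58, 10.55 and 10.53 in KO. All 3 KO arrays were above all WT arrays (0.24, SE 0.044, adjusted p = 0.00708).

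Among the genes of the naming rule, Uchl5 and Usp14 encode the deubiquitinases that ride on the proteasome, and both were lower. Psmd14, which encodes a further deubiquitinase of the proteasome, lies outside that rule and was not called (-0.07, adjusted p = 0.256). Uchl5, which docks on the 19S particle, had 10.80 on each WT array and 10.44, 10.47 and 10.50 on the KO arrays. The difference of -0.33 (SE 0.041, adjusted p = 0.00107) left 79.3% of the WT level. Usp14, the ubiquitin protease that trims chains at the same particle, had 11.74, 11.74 and 11.71 in WT and 11.48, 11.52 and 11.65 in KO. The last of its KO arrays came close to the WT arrays without meeting them, and the difference was -0.18 (SE 0.055, adjusted p = 0.0469). The Usp14 call was lost when any array but Atxn3-KO replicate 3 was left out, with an adjusted p of up to 0.137. Of 3 genes listed for the docking of Uchl5 and Usp14 on the proteasome, directly or through another subunit, 2 were measured. Psmd1 was lower (-0.20, adjusted p = 0.0216) and Psmd2 was not called (0.13, adjusted p = 0.0609).

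Among 11 genes that act on histones and transcription, 3 were lower and 1 was higher. These counts are near or under the 20.7% lower and 24.1% higher of all genes at or above the median level. Bap1, the tumour suppressor that removes ubiquitin from histone H2A in the PR-DUB complex, had 11.18, 11.22 and 11.27 in WT and 10.82, 10.97 and 11.09 in KO. The KO arrays were all lower but spread widely, and the difference was -0.27 (SE 0.073, adjusted p = 0.0338). It too was called without Atxn3-KO replicate 3 but not without any other array (adjusted p up to 0.101). Its second probe set was lower too. Of 9 PR-DUB partners measured, 4 were lower: the scaffolds Asxl1 (-0.34, adjusted p = 0.00362) and Asxl2 (-0.29, adjusted p = 0.00431), the glycosyltransferase Ogt (-0.33, adjusted p = 0.00209) and Hcfc1 (-0.20, adjusted p = 0.0151). Kdm1b, a histone demethylase, was higher (0.30, adjusted p = 0.017), and Asxl3, Foxk1, Foxk2 and Mbd6 were not called.

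Usp36, a nucleolar protease, had 9.29, 9.30 and 9.25 in WT and 8.90, 8.98 and 8.99 in KO, with no overlap (-0.32, SE 0.045, adjusted p = 0.00213). Usp42 was lower by a small margin (-0.17, SE 0.050, adjusted p = 0.0498). The related Usp22 and Usp27x both take ubiquitin from histone H2B with the cofactors Atxn7l3 and Eny2. Usp27x had 7.85, 7.61 and 7.73 in WT and 7.91, 8.01 and 8.05 in KO. Its groups stood 0.26 apart (SE 0.071, adjusted p = 0.0328), with the lowest KO array just above the highest WT array. Usp22, in the SAGA complex, had 11.92, 11.83 and 11.86 in WT and 11.81, 11.74 and 11.76 in KO, and was not called (-0.10, adjusted p = 0.166). Of the 5 genes of the SAGA deubiquitinase module, Atxn7 was lower (-0.30, adjusted p = 0.0254) and Eny2 higher (0.23, adjusted p = 0.0185). The H2A proteases Usp3 and Usp16 and the H2B proteases Usp44 and Usp49 were not called, with differences from -0.17 to 0.11.

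Of the 7 genes listed under DNA repair and replication, 3 were lower and none higher by the chosen probe sets. The shares over all genes at or above the median level were 20.7% and 24.1%. Usp45, which also acts in repair but was not on this list, was higher (0.31, adjusted p = 0.00329). Usp11, which serves homologous recombination, had 8.64, 8.40 and 8.51 in WT and 7.84, 7.85 and 7.80 in KO. The WT arrays varied more than the KO arrays, but the groups did not come near each other (-0.69, SE 0.065, adjusted p = 0.000319), and the KO level was 62.2% of the WT level. Brcc3, the K63-specific JAMM protease of the BRCA1-A and BRISC complexes, had 10.47, 10.44 and 10.54 in WT and 10.34, 10.26 and 10.35 in KO (-0.17, SE 0.049, adjusted p = 0.0436), and lost its call without any 1 of the arrays (adjusted p up to 0.141). Uimc1, the ubiquitin reader of BRCA1-A, was higher (0.40, SE 0.040, adjusted p = 0.000438), Shmt2 of BRISC was lower (-0.20, adjusted p = 0.0101) and 4 other subunits were not called. Usp37 was lower (-0.22, adjusted p = 0.00765). Usp1, which acts on FANCD2 and PCNA, had 12.58, 12.65 and 12.62 in WT and 12.68, 12.69 and 12.69 in KO, and was not called (0.07, 95% interval -0.03 to 0.17). Usp28, Usp47 and Usp48 were not called, at -0.04, -0.03 and 0.10. Another probe set was higher for Usp1 (0.19, adjusted p = 0.0109) and for Usp48 (0.32, adjusted p = 0.00284).

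Usp11, Brcc3, Usp27x, Otud5 and Usp26 are X-linked. The level of Xist, by 1 of its 3 probe sets, was 10.55 to 10.68 in WT and 10.51 to 10.78 in KO, and all Y-linked probe sets checked (Eif2s3y, Kdm5d and Uty) were below the 25th percentile in both genotypes. None of these Xist or Y-linked probe sets was called in either direction.

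Usp12 and Usp46 are close relatives that share the activators Wdr48 and Wdr20. Usp12 had 8.88, 8.96 and 8.89 in WT and 9.11, 9.20 and 9.17 in KO, a difference of 0.25 (SE 0.047, adjusted p = 0.00692) with no overlap. Usp46 had 9.52, 9.55 and 9.49 in WT and 9.53, 9.52 and 9.50 in KO. The Usp46 groups overlapped, with a 95% interval of -0.10 to 0.10, although a second Usp46 probe set was higher (0.23, adjusted p = 0.0059). None of the 3 activator genes was called.

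**Figure D2:**
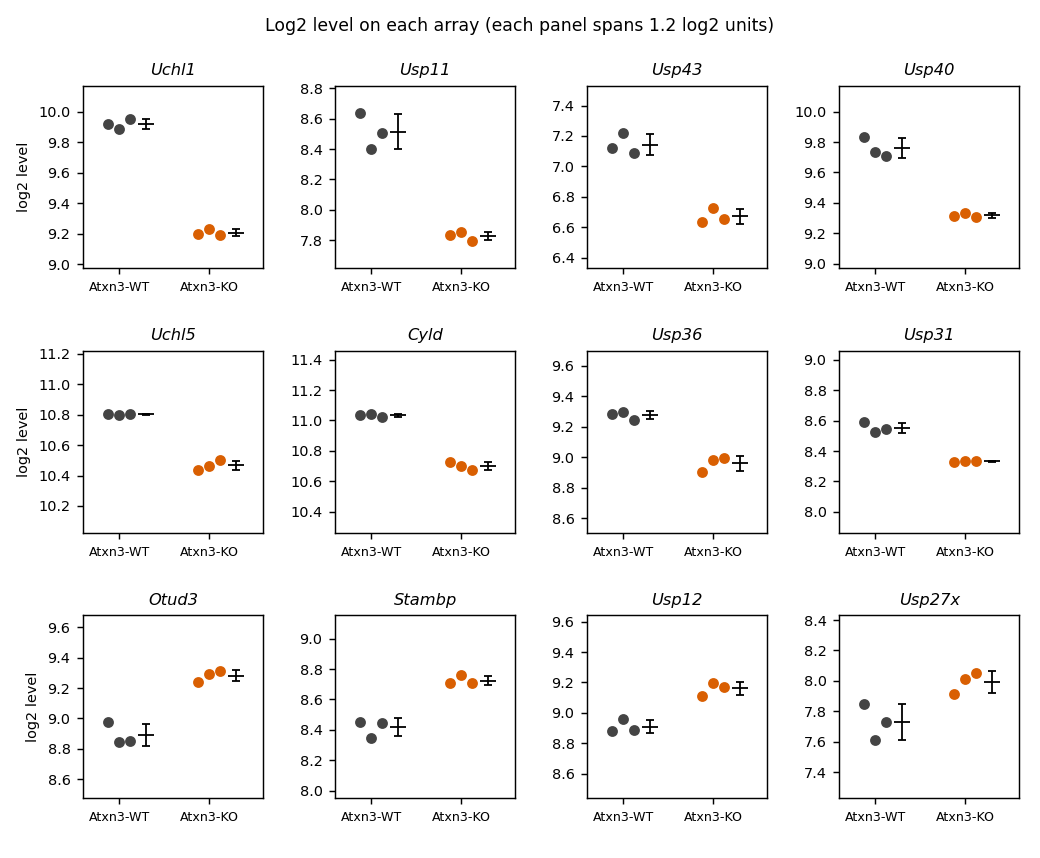
Log2 level on each array (points, Atxn3-WT grey, Atxn3-KO orange) for 12 genes, with the mean and SD of each group of 3 beside the points. Each panel spans 1.2 log2 units around its own values, so gaps compare between panels but levels do not. All 12 are among the genes called, 8 lower and 4 higher in KO. The groups were separate in every gene called, so the lack of overlap in these panels follows from that choice. Over all genes measured, every KO array lay below every WT array in 23.9% and above in 25.3%.

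Among 9 genes that act on linear, K63 and other signalling chains, 4 were lower and none higher. Of all genes at or above the median level, 20.7% were lower and 24.1% higher. Cyld, the tumour suppressor that cuts K63 and linear chains and restrains NF-kappaB, had 11.03, 11.04 and 11.03 in WT and 10.73, 10.70 and 10.68 in KO. The WT arrays hardly differed from each other and all KO arrays were lower (-0.33, SE 0.041, adjusted p = 0.00105). Spata2, which links CYLD to the linear-chain ligase, was lower as well (-0.22, adjusted p = 0.0157). Otud4 had 10.85, 10.83 and 10.79 in WT and 10.56, 10.54 and 10.54 in KO (-0.27, SE 0.041, adjusted p = 0.00272). Otud1 had 7.49, 7.35 and 7.55 in WT and 7.28, 7.18 and 7.26 in KO, a narrower gap (-0.22, SE 0.062, adjusted p = 0.0357). Otud7a was lower (-0.19, adjusted p = 0.0422). Its relative Otud7b (Cezanne), which prefers K11 chains, was not called (-0.05), nor were Otub1 (0.02, 95% interval -0.08 to 0.13), Zranb1, Usp25 and Otud5 by its chosen probe set.

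At endosomes, Stambp and Usp8 both bind the sorting protein STAM and act on receptors bound for the lysosome. Stambp (AMSH), specific for K63 chains, had 8.45, 8.35 and 8.45 in WT and 8.71, 8.76 and 8.71 in KO. All KO arrays were higher (0.31, SE 0.048, adjusted p = 0.00309). Usp8 had 10.67, 10.64 and 10.69 in WT and 10.51, 10.50 and 10.47 in KO, the opposite direction (-0.17, SE 0.041, adjusted p = 0.020). Stam2 was lower (-0.20, adjusted p = 0.0112), while Stam and Hgs were not called. Usp32, a membrane-anchored protease acting on RAB7, was lower with 11.26, 11.23 and 11.23 in WT and 11.02, 11.06 and 11.01 in KO (-0.21, adjusted p = 0.00881). Usp10, a G3BP-binding protease, was lower too (-0.18, adjusted p = 0.0134), and G3bp1 and G3bp2 were not called.

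ATXN3 binds the p97 ATPase, and so do some deubiquitinases of the endoplasmic reticulum and Golgi. Of 4 such genes, only Vcpip1 was called. Vcpip1, needed for Golgi reassembly after mitosis, had 9.70, 9.84 and 9.78 in WT and 9.44, 9.45 and 9.35 in KO. The groups were clear of each other (-0.36, SE 0.055, adjusted p = 0.00277). Yod1 (-0.12), Usp13 (0.21) and Usp19 (0.04) were not called, and Usp19, which is membrane-bound at the endoplasmic reticulum, had overlapping groups with 10.30, 10.26 and 10.21 in WT and 10.33, 10.29 and 10.26 in KO. Vcp, which encodes p97, was not called (0.08). Of 8 genes for p97 and its adaptors, Ufd1 and Faf1 were higher and Ubxn4 (-0.28, adjusted p = 0.00654) and Nploc4 were lower.

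Of the regulators of TGF-beta and Wnt signalling, Usp34, which stabilises axin, was lower with 11.76, 11.76 and 11.72 in WT and 11.63, 11.57 and 11.52 in KO (-0.17, SE 0.046, adjusted p = 0.0302). Usp15 was not called (-0.11), and Usp4 differed by 0.00 with a 95% interval of -0.09 to 0.10. The mitochondrial Usp30, which counters mitophagy, overlapped between genotypes with 8.64, 8.76 and 8.73 in WT and 8.64, 8.71 and 8.69 in KO. Usp33 and Usp20 bind the VHL protein and act on beta-arrestin. Usp33 had 9.74, 9.79 and 9.74 in WT and 9.62, 9.61 and 9.66 in KO. Its groups did not overlap, yet it was not called (-0.13, adjusted p = 0.0675), and Usp20 was at 0.01.

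The 16 genes placed on none of these role lists included 3 higher and 5 lower ones, beside the 24.1% and 20.7% of all genes at or above the median level. Otud3, an OTU protease, had 8.98, 8.84 and 8.85 in WT and 9.24, 9.29 and 9.31 in KO, and the KO arrays were all higher (0.39, SE 0.053, adjusted p = 0.00165). Usp45, which acts on the repair nuclease subunit ERCC1, had 10.20, 10.28 and 10.33 in WT and 10.58, 10.55 and 10.61 in KO (0.31, SE 0.049, adjusted p = 0.00329). Usp39, a splicing factor with an inactive protease fold, had 11.46, 11.47 and 11.41 in WT and 11.65, 11.70 and 11.70 in KO (0.24, SE 0.043, adjusted p = 0.00577).

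The lower genes of this remainder included Usp43, with 7.12, 7.22 and 7.09 in WT and 6.64, 6.73 and 6.65 in KO (-0.47, SE 0.053, adjusted p = 0.000733). Usp40 had 9.83, 9.74 and 9.71 in WT and 9.31, 9.33 and 9.31 in KO, with the KO arrays close together (-0.44, SE 0.048, adjusted p = 0.000652). Usp38 had 8.43, 8.35 and 8.40 in WT and 8.06, 8.01 and 8.15 in KO (-0.32, SE 0.053, adjusted p = 0.00399). Usp31 (-0.22) and Usp54 (-0.19) were lower by smaller margins. Neither gene that encodes no deubiquitinase was called: Usp6nl had 9.18, 9.25 and 9.15 in WT and 9.13, 9.05 and 9.08 in KO, and Usp46os2 ran from 4.99 to 5.24 in WT and from 5.03 to 5.10 in KO.

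By protein family, 15 of 46 USP genes were lower and 5 higher, 4 of 11 OTU genes were lower and 1 higher, 3 of 4 UCH genes were lower, and 1 of 3 JAMM genes moved each way. The UCH genes called were Uchl1, Uchl5 and Bap1, and the fourth, Uchl4, was among those dim genes. Of 13 related genes outside the naming rule, from families with deubiquitinase folds, Mindy4 (0.86, SE 0.062, adjusted p = 9.56e-05), Mpnd (0.39) and Otulin (0.18) were higher. Cops5, the COP9 signalosome subunit that removes NEDD8 (-0.32, adjusted p = 0.00152), and Uspl1, which acts on SUMO (-0.22), were lower. After the centring by chromosome described further on, Otulin was no longer called (0.08, adjusted p = 0.289). Over the partner lists as a whole, 5 of 41 genes were higher and 11 lower. Beside these family and list counts, 24.1% of all genes at or above the median level were higher and 20.7% lower.

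Where a gene had several probe sets, most moved alike. The 23 called genes with a further probe set had 43 of them, and 36 had the same sign as the chosen one, 19 were called the same way and none the other way. Of all probe sets on the array, 13.5% were lower and 12.5% higher. The 7 of opposite sign all had mean levels under the median of all probe sets. For Cyld, further probe sets gave -0.25 and -0.37, both lower, and a dim one gave 0.00. In contrast, 6 genes not called by the chosen probe set were called by another: Otud5 (-0.47, adjusted p = 0.00063), Usp1 (0.19), Usp24 (0.30 and 0.32), Usp46 (0.23), Usp48 (0.32) and Usp7. Usp7, the protease of MDM2 and p53 whose chosen probe set had 10.99, 10.98 and 10.87 in WT and 11.11, 11.07 and 11.13 in KO (0.15, adjusted p = 0.0633), had 4 probe sets called higher (0.17 to 0.23) and 1 called lower (-0.28, adjusted p = 0.0117). It was the only gene of the 66 with calls in both directions, so its direction is not settled.

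**Figure D3:**
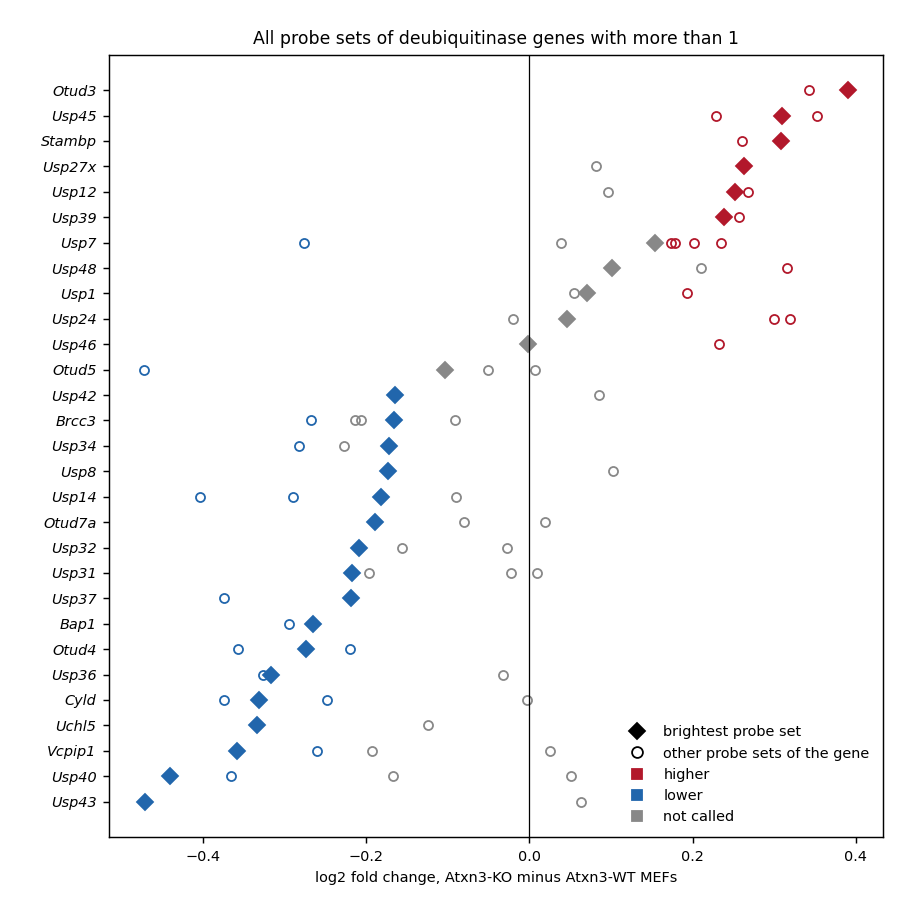
Difference in log2 level for every probe set of the 29 genes that have more than 1 and at least 1 call. Diamonds are the chosen probe sets and circles the others, red called higher, blue called lower, grey not called. In 18 of the 29 genes every circle falls on the side of its diamond, and only Usp7 holds both red and blue.

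On chromosomes whose other genes were shifted as a whole, the direction of a call went with that shift. Over all other genes at or above the median level, the median difference was 0.0025 for the whole genome. It was 0.20 on chromosome 4, 0.25 on chromosome 6, 0.21 on chromosome 13, 0.10 on chromosome 15 and 0.16 on chromosome 16. On the lower side it was -0.17 on chromosome 1, -0.23 on chromosome 14 and -0.10 on chromosomes 8 and 18. On chromosome 6, 65.7% of genes were higher and 4.45% lower in Atxn3-KO MEFs, while on chromosome 14, 59.7% were lower and 8.33% higher. All 3 genes of the 66 on chromosome 6 (Stambp, Usp5 and Usp39) were higher. All 4 on chromosome 8 (Cyld, Otud4, Usp10 and Usp38), both on chromosome 14 (Bap1 and Usp54) and 4 of 6 on chromosome 1 (Usp40, Vcpip1, Uchl5 and Usp37) were lower.

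Counted together, the 12 genes on the 5 chromosomes with a median over 0.1 held 5 higher calls and no lower one, where 53.9% of genes at or above the median level were higher and 5.41% lower. The 13 genes on the 4 chromosomes with a median under -0.1 held 11 lower calls and no higher one, where 45.2% of such genes were lower and 9.38% higher. The other chromosomes held 41 of the 66 genes, 35 of them at or above the median level. Of these 35, 12 were lower (34.3%, against 19.4% of such genes there) and 2 were higher (5.71%, against 17.5%). Over the 60 genes at or above the median level, the difference of a gene and the median of its chromosome correlated at r = 0.62 (Spearman's rho = 0.68), as a description across genes that share the same 6 arrays. Of the 30 genes called, 26 had the sign of their chromosome's median, and the exceptions were Usp12, Usp27x, Usp31 and Otud7a. Some of these medians were too small for their sign to say much. That of chromosome X, with Usp11, Brcc3 and Usp27x, was -6.6e-05. That of chromosome 2, with Otud1 and Usp8, was -0.024. DNA copy number was not measured, and the part of the chromosome-wide differences in these results was not tested.

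**Figure D4:**
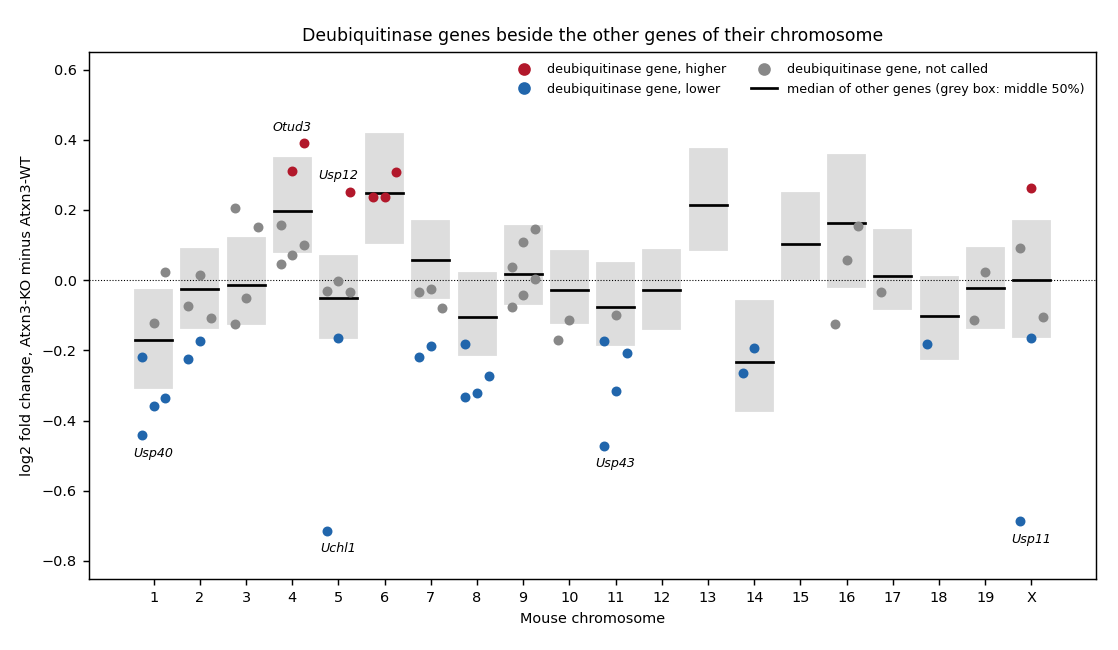
Difference in log2 level of each of the 66 genes (points, red higher, blue lower, grey not called) by mouse chromosome, beside the median (black line) and the middle 50% (grey box) of all other genes of that chromosome at or above the median level. Calls on chromosomes 4 and 6 are red and those on chromosomes 1, 8 and 14 are blue, as the boxes lie, while Uchl1, Usp11 and Usp43 lie far below their boxes.

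To set each gene against its neighbours, the arrays were also centred chromosome by chromosome, an alternative chosen after the data had been seen. It left 20 genes called, 16 lower and 4 higher, where 15.5% of all genes were then lower and 15.9% higher (17.9% and 20.3% of those at or above the median level). Of the 30 original calls 18 were kept. Uchl1 (-0.66, adjusted p = 5.3e-05), Usp11 (-0.68, adjusted p = 0.000402), Usp43 (-0.40), Usp40 (-0.27), Usp36 (-0.24), Cyld (-0.23), Usp38 (-0.22), Vcpip1 (-0.19), Otud4 (-0.17) and Uchl5 (-0.16) were still lower. Usp12 (0.30, adjusted p = 0.00389), Usp27x (0.27, adjusted p = 0.0283) and Otud3 (0.19, adjusted p = 0.0306) were still higher. The calls lost were those of Bap1 (-0.05), Otud1 (-0.20), Usp37, Usp54, Usp10, Usp14, Usp34 and Usp42 among the lower genes, and of Usp5 (-0.02), Usp39 (-0.01), Stambp (0.06) and Usp45 (0.11) among the higher ones. Usp16 (-0.29, adjusted p = 0.00392) and Usp21 (0.20, adjusted p = 0.0208) were called here although not in the original fit. When genes of every level set the median instead, Stambp (adjusted p = 0.0449) and Usp45 (adjusted p = 0.0446) kept their calls and Brcc3 (adjusted p = 0.0519) lost its call, and Usp21 (adjusted p = 0.0990) was not called. With the PR-DUB partners centred alike, Asxl1, Asxl2, Ogt and Hcfc1 were still lower, Kdm1b was no longer called and Asxl3 was called higher (0.41, adjusted p = 0.0232). Asxl3 is dim, with means of 4.29 in WT and 4.60 in KO near the 25th percentile of 4.36, and its change is hard to read. Before centring it stood at 0.31 (adjusted p = 0.0572). Over all partner lists 8 of the 16 calls were kept, those of Atxn7, Eny2, Psmd1, Ufd1, Faf1, Ubxn4 and Nploc4 were also lost, so that no p97 adaptor was called, and 4 genes were newly called. Of the 66 genes, 7 lay outside the middle 80% of the other genes of their own chromosome at or above the median level. They were Uchl1, Usp11, Usp43, Usp31, Otud7a, Usp36 and Usp40, all 7 on the lower side. By definition 80% of those other genes lie inside this range, and the rest are split evenly between its lower and upper ends. The 7 were thus a smaller share than the range leaves outside, and on the lower side alone close to the share left there. Uchl1 lay at percentile 1.36 of chromosome 5, and Usp11, with the promoter shown above, at percentile 1.13 of chromosome X.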

How the data were processed

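The 6 arrays were normalized by the authors with RMA, and the deposited table holds log2 values of 45101 probe sets. Their methods name the affy, affyPLM and limma packages, with no versions. On these values, limma 3.58.1 (R 4.3.3) estimated Atxn3-KO minus Atxn3-WT with lmFit and eBayes and equal array weights, since the weights of the authors' model are not named. The Benjamini-Hochberg adjustment ran over 45037 probe sets, after 64 control probe sets were left out. Genes were named from the platform annotation (34945 probe sets name 1 gene, 932 several, 9160 none). Chromosomes and promoters came from RefSeq, GRCm38.p6. The genes and lists were chosen with earlier results of these data known.

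Values are given for the 12 highest and 12 lowest differences among genes called (7 were called higher), the brightest gene of each family and role, genes with probe sets called both ways, and the called gene with the largest change in each partner list; other values were named after they were seen. Summed marker signal is the sum of 2 to the power of the log2 level. Alternatives were array weights, a replicate block, other variance models, normalizations, filters, probe set rules and thresholds, and leaving out each array. Centring each chromosome on the median deviation of its other genes was added after the data were seen. The fit was tested on simulated data. Arrays of a genotype correlated at 0.998 to 0.999, at most 0.386% of values were equal between any 2 arrays, and the number of arrays limits the precision.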

Additional observations from a re-analysis of the deposited data

How the results depend on the processing

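The 30 calls (7 higher, 23 lower) ranged from 24 to 37 over the other variance models, normalizations, filters and probe set rules, with 20 after either centring of the chromosomes, and no gene was called in the opposite direction to its main call under any setting tried. Of the genes called, 19 (13 lower) had an adjusted p under 0.01, and with a change of at least 1.5-fold 2 remained, 0 higher and 2 lower (Uchl1 and Usp11). Without 1 array there were 21 to 25 calls, 6 to 8 higher and 14 to 19 lower. The lower calls fell to 14 without Atxn3-WT replicate 3 and to 15 without Atxn3-KO replicate 2, and each of Bap1, Otud1, Otud7a, Usp10, Usp14, Usp8, Usp34, Brcc3, Usp42 and Usp27x lost its call without at least 1 array (10 of them without Atxn3-WT replicate 3, 7 without each other Atxn3-WT replicate, and 6, 9 and 5 without Atxn3-KO replicates 1, 2 and 3). Without 1 array the adjusted p ran from 0.0151 to 0.101 for Bap1, from 0.0162 to 0.113 for Otud1 (called only without Atxn3-WT replicate 2), from 0.0365 to 0.0868 for Usp34 (only without Atxn3-KO replicate 1) and from 0.0207 to 0.0928 for Usp27x (without replicate 1 of either genotype). The replicate numbers did not pair the arrays (correlations of 0.021, -0.023 and -0.036 between deviations of the same number), and with the replicate number as a block 23 genes were called, 6 higher and 17 lower. With the mean of all probe sets of a gene, 11 genes were higher and 21 lower, Usp46 turned to 0.12 (adjusted p = 0.0355) and Usp19 to -0.048. With the probe set of largest variance, Usp46 turned to 0.23 (adjusted p = 0.0059) and Usp19 to -0.076. Usp46, at -0.002, also changed sign with array weights (0.0034), quantile normalization (0.0057), median centring (0.010), and without Atxn3-WT replicate 2 or Atxn3-KO replicate 3 (range without 1 array -0.018 to 0.014). Usp46os2 changed sign without Atxn3-WT replicate 1 (range -0.088 to 0.034). Centring the chromosomes left 4 higher and 16 lower calls, and turned Usp39 to -0.014, Usp5 to -0.016, Usp1 to -0.13, Usp7 to -0.010, Usp30 to 0.019, Usp46 to 0.048 and Usp46os2 to 0.017. Over genes of every level it left 5 higher and 15 lower, with Usp1 at -0.068, Usp30 at 0.0035, Usp46 at 0.032 and Usp46os2 at 0.0018. The causes of these changes were not tested. In genes with a mean under the 25th percentile of the arrays a change is hard to read.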
